A study of Strongylocentrotus purpuratus and Patiria miniata with 14 samples.

Results

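In the bat sea star Patiria miniata, 1212 open chromatin regions carried a peak at mesenchyme blastula and at the bipinnaria larva but none at late gastrula. They were taken from 105823 regions made by merging the peaks of all 6 sea star lists wherever they overlapped by at least 1 bp. A region was kept if both lists of 24 h post-fertilization (hpf) and both lists of 90 hpf held a peak in it, and neither list of 66 hpf did. They are called gastrula-uncalled regions here, and the 29123 regions with a peak in all 6 lists are called shared regions. The study profiled wild-type whole embryos grown at 15 °C by ATAC-seq, with 2 replicates at 24 hpf (mesenchyme blastula), 66 hpf (late gastrula) and 90 hpf (bipinnaria). No treatment or mutation was applied, and a whole embryo mixes all its tissues, so fewer open cells and less opening per cell cannot be told apart. Whether the replicates were separate cultures is not given in the sources used here, so their spread may be technical.

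In ATAC-seq a transposase inserts adapters into DNA that nucleosomes leave exposed, and a pile of insertions marks a promoter, an enhancer or another regulatory element. During gastrulation the sea star embryo internalizes its gut and mesoderm, and the larva later forms its ciliary bands, nervous system and digestive tract. A peak list holds the places where the signal passed a significance threshold and gives no value anywhere else. The gastrula-uncalled regions were chosen by the presence and absence of called peaks, so their strength is described below without a test.

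Of the 33048 regions with a peak in all 4 lists of 24 and 90 hpf, 29123 (88.1%) had a peak in both 66 hpf lists and 2713 (8.21%) had one in a single 66 hpf list. The 1212 gastrula-uncalled regions were the remaining 3.67%. The same rule turned to the other stages gave 3091 regions uncalled at 24 hpf alone (8.78% of 35222) and 1186 uncalled at 90 hpf alone (3.62% of 32771). A further 2806 regions had no 66 hpf peak and a peak in 3 of the 4 other lists. The count depended on the lists used. It was 773 when every list was shortened to its 56044 strongest peaks, and 731 of these 773 overlapped the 1212. Without 1 library it was 2490 and 2652 (66 hpf replicate 1 or 2 left out), 1960 (24 hpf replicate 1) and 2300 (90 hpf replicate 1), since fewer conditions then remain.

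The gastrula-uncalled regions were weak where they were called. The weakest of their 4 fold enrichments (summit signal over local background, as the peak caller wrote it) had a median of 3.66, against 5.73 for the same 4 lists in shared regions. Regions uncalled at another stage alone were weak too, with medians of 4.13 (24 hpf) and 4.26 (90 hpf). Its 5th and 95th percentiles in the gastrula-uncalled regions were 2.53 and 4.97, and the highest was 6.52. The weakest of the 4 −log10 p-values had a median of 5.94, against 14.79 in shared regions, 6.66 in regions uncalled at 24 hpf alone and 6.55 in those uncalled at 90 hpf alone. It was under 6 in 636 of the 1212 (52.5%). By list, the median −log10 p was 8.61 and 8.44 at 24 hpf and 7.38 and 8.63 at 90 hpf, against 21.47, 21.07, 21.83 and 26.11 in shared regions. All 4 peaks lay in the weaker 50% of their lists in 465 regions (38.4%) and in the stronger 50% in 27 (2.23%). No region had all 4 in the top 25% of the lists. Their peaks were also narrow, with median widths of 226, 231, 209 and 225 bp against 338 to 362 bp in shared regions. Regions uncalled at 24 hpf alone had median widths of 229 to 287 bp, and those uncalled at 90 hpf alone of 220.5 to 258 bp.

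The share of regions that went uncalled at late gastrula fell steeply with the strength of the other 4 peaks. It was 23.6% (33 of 140) where the weakest of them had a −log10 p under 4, 11.5% (355 of 3086) between 5 and 6, 4.01% (137 of 3418) between 8 and 10, and 0.735% (41 of 5577) between 10 and 15. At 15 or more it was 0.0139%, or 2 of 14387 regions (95% exact binomial interval 0.00168 to 0.0502%, which covers counting error only). The other stages left more regions of high −log10 p uncalled. At 15 or more, 183 of 15446 (1.18%) were uncalled at 24 hpf alone and 105 of 14413 (0.729%) at 90 hpf alone. An equal −log10 p is not an equal level of signal between these comparisons, in any of the ranges. For the other stages the 4 peaks include those of the late gastrula lists, the shallowest by the measure given below. A peak there needs more signal over background to reach the same p. The ranges were not matched for depth. Regions past 10 made up 43 of the gastrula-uncalled regions (3.55%), against 550 (17.8%) of those uncalled at 24 hpf alone and 228 (19.2%) of those uncalled at 90 hpf alone. Among weaker regions the late gastrula share was above the bipinnaria share, at 17.0% (interval 15.1 to 19.0%) against 11.7% (10.1 to 13.5%) between 4 and 5, 11.5% against 9.47% between 5 and 6, and 9.83% against 7.78% between 6 and 7. Between 7 and 8 they were 5.77% and 5.67%. The share uncalled at 24 hpf alone was above both in each of these ranges, at 26.2%, 23.1%, 19.1% and 14.8%.

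**Figure D1:**
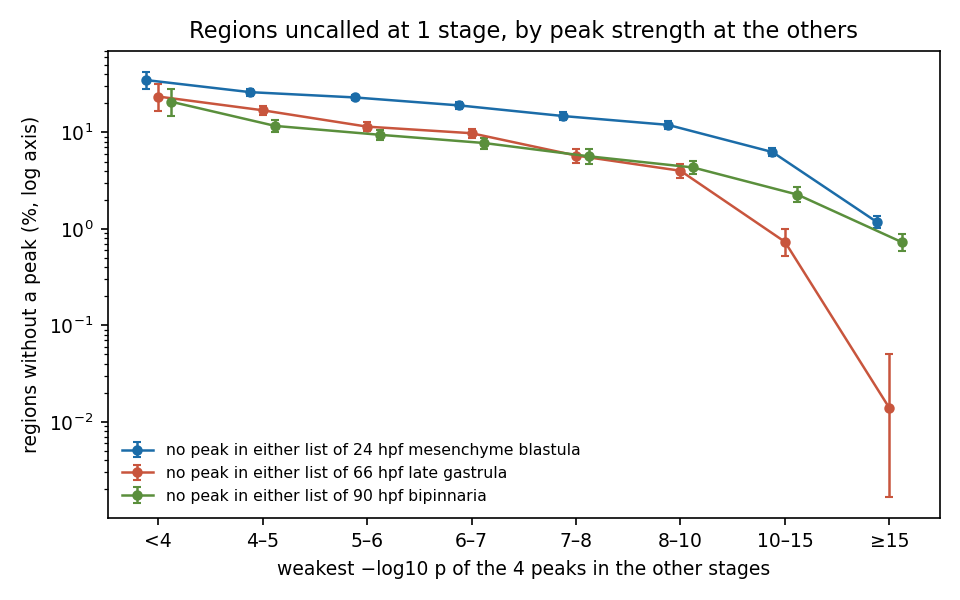
Percent of regions (log axis) with no peak in either list of 1 stage, by the weakest −log10 p of the 4 peaks at the other 2 stages; bars are 95% exact binomial intervals. The late gastrula share is above the bipinnaria share between 4 and 5 (17.0% and 11.7%), close to it between 8 and 10 (4.01% and 4.34%) and far below it at 15 or more (0.0139% and 0.729%). The ranges of p are not matched for depth between stages.

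Regions just outside the rule had similar values. Where a single 66 hpf list held a peak (1275 regions in replicate 1 alone, 1438 in replicate 2 alone), that peak had a median −log10 p of 7.21 in replicate 1 and 7.29 in replicate 2 and ranked at 72.5% and 68.8% of its list, counted from the strongest. The weakest of the 4 other peaks had a median −log10 p of 6.39 and a median fold enrichment of 3.83 in these regions. The regions with no 66 hpf peak and only 3 of the 4 others had medians of 5.58 and 3.6 for the weakest of their 3 peaks. The lowest of 3 values tends to lie above the lowest of 4, so these medians are not a like measure.

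The late gastrula libraries were the shallowest by the one measure of depth that the lists carry. Fold enrichment and p together give back the whole number of extended reads piled up at each summit and the local background, and the lowest background of a list is its genome-wide mean, which scales with the reads used. This genome background was 1.274 and 1.11 reads at 66 hpf, against 1.722 and 1.609 at 24 hpf and 1.621 and 1.926 at 90 hpf. The 66 hpf mean of 1.19 was 0.693 times the mean of 1.72 over the other stages. The 2 groups did not overlap, and the exact two-sided permutation p of 0.0667 was the smallest that 2 libraries against 4 allow. The lists held 56044 and 58073 peaks at 66 hpf, against 59009 to 72079 in the other 4 lists, a mean of 57058.5 against 64394.0 (exact two-sided permutation p = 0.2). Depth and stage cannot be told apart in these libraries. Dividing a summit pileup by the genome background of its list gives a level that can be set beside other lists.

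On this scale the gastrula-uncalled regions had median levels of 10.45 and 10.57 at 24 hpf and 9.26 and 9.35 at 90 hpf, against 20.33, 21.13, 21.60 and 22.32 in shared regions. Their median summits were 18, 17, 15 and 18 reads. A summit as strong as a weak peak of the late gastrula lists would have held a median of 10 reads in replicate 1 and 9 in replicate 2, given the local background of each region. This bar is the p of the median peak among the weakest 5% of each list (a −log10 p of 4.57 and 4.67). It is not a requirement for a call, as 97.5% and 96.3% of the 66 hpf peaks reached it and the rest were listed below it. The levels at the bar differ between the 2 lists, and the lower one is used unless both are named. The mean level of each region, written as reads at the depth of the 66 hpf lists, had a median of 12.78 and 11.13.

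**Figure D2:**
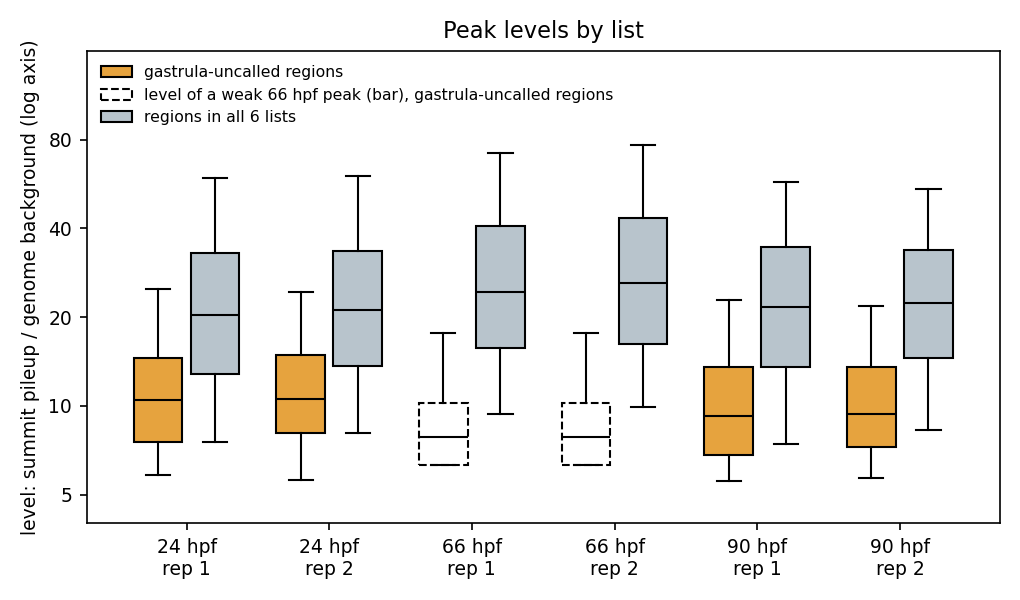
Level (summit pileup over genome background, log axis) in each sea star list, with the median, quartiles and 5th to 95th percentiles. Gastrula-uncalled regions (orange) have medians of 9.26 to 10.57 and shared regions (grey) of 20.33 to 26.12; the dashed boxes, the same in both 66 hpf lists, are not measurements but the level of a weak 66 hpf peak at the local background of each gastrula-uncalled region (the lower of the 2 lists), with a median of 7.85.

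Measured against that bar, which a call did not require, most of the regions lay close to it. The mean of their 4 levels was 1.23 times the bar in the median region, with 5th and 95th percentiles of 0.97 and 1.71. It reached the bar in 1090 regions (89.9%), and it was at least 1.5 times the bar in 183 (15.1%) and at least 2 times the bar in 10 (0.825%). Against the higher of the bars of the 2 lists, the median was 1.16, and 976 regions (80.5%) reached it, 119 (9.82%) at 1.5 times and 6 (0.495%) at 2 times. The lowest of the 4 levels reached 1.5 times the bar in 9 regions and 2 times the bar in none. When each of the 4 peaks was scaled to the depth of the 66 hpf lists, all 4 still passed the bars of both lists in 457 regions (37.7%), 3 passed in 378, 2 in 258, 1 in 89 and none in 30. Without 66 hpf replicate 2, whose bar is then not applied, all 4 passed in 63.3% of the 2652 regions then kept. Without 66 hpf replicate 1 all 4 passed in 43.0% of 2490. By fold enrichment alone, with no allowance for depth, 517 regions (42.7%, exact interval 39.9 to 45.5%) had their weakest peak below the median of the weakest late gastrula peaks (3.52), against 10.6% of shared regions. The interval covers counting error only. Leaving out 1 library, which also changes the set of regions, gave from 27.2% (without 66 hpf replicate 2) to 53.3% (without 66 hpf replicate 1). The share was 14.4% when −log10 p took the place of fold enrichment. At the very end of the late gastrula lists (a −log10 p of 3.14 and 2.82) the scaled peaks of 1188 regions (98.0%) all passed. Against the level at that end, the mean level was at least 1.5 times as high in 740 regions (61.1%). It was at least 2 times as high in 155 (12.8%), so how close the regions lie depends on the bar. The lists hold no peak under 100 bp wide, so a tall but narrow summit would not be in them.

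**Figure D3:**
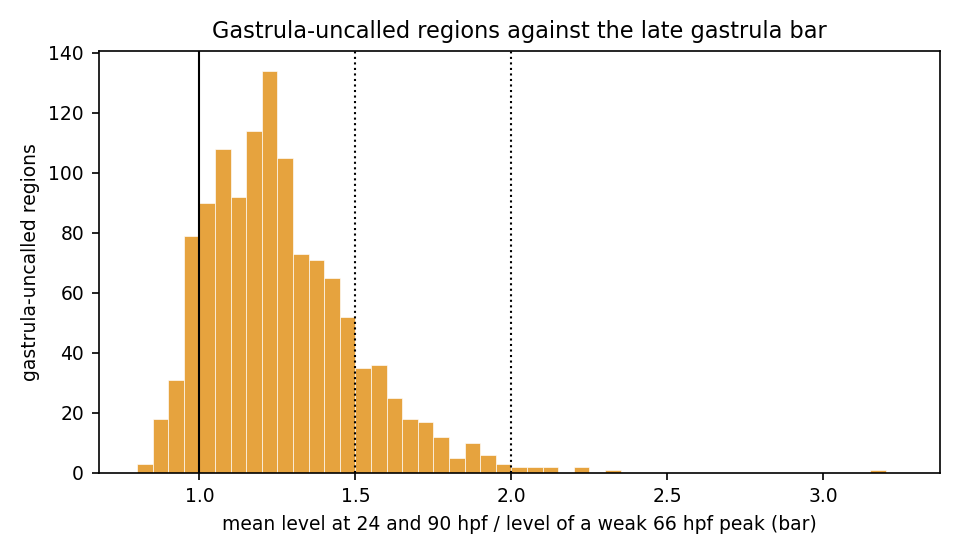
Number of gastrula-uncalled regions by the mean of their 4 levels divided by the level of a weak 66 hpf peak (the lower of the 2 lists); the lines mark 1, 1.5 and 2. The median is 1.23, and 10 of 1212 regions lie at 2 or more. Against the end of the late gastrula lists (not drawn) the median is 1.59, and 155 regions lie at 2 or more.

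On the log2 scale the bar lay at −0.30 relative to the mean of the other levels in the median region. The log2 ratio of replicate 1 to 2 in single gastrula-uncalled regions had an SD of 0.35 at 24 hpf and 0.38 at 90 hpf, which is the spread of a single region and not the error of a median. In shared regions it was 0.31 at 24 hpf, 0.35 at 66 hpf and 0.36 at 90 hpf. Shared regions were themselves shifted at late gastrula. Their 66 hpf level was 0.28 higher on the log2 scale than the mean of the other stages in the median region (SD 0.34), and 0.32 higher among the 12340 with a mean level of at least 24. When the levels of each list were divided by its median over shared regions, which removes this shift, the mean level of the gastrula-uncalled regions over 24 and 90 hpf was 1.44 times the bar in the median region, at or above it in 1210 (99.8%), at least 1.5 times in 490 (40.4%) and at least 2 times in 66 (5.45%). Centred in this way and set against the end of the late gastrula lists, the median was 1.93 times. The mean level was then at least 1.5 times in 1154 regions (95.2%) and at least 2 times in 513 (42.3%). The gap thus depends on the scale and the bar taken, and the lists give no 66 hpf level in any of these regions.

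The uncalled share fell with level as it did with p. Of regions with a mean level from 6 to 8 at 24 and 90 hpf, 24.7% (302 of 1222) had no 66 hpf peak, against 3.68% from 12 to 16 and 0.368% (46 of 12484) at 24 or more. Levels at 24 and 90 hpf were also compared within the gastrula-uncalled regions. The rule did not use their order, but it required a call in each of the 4 lists. The levels are thus cut off at the threshold of each list, and the comparison is a description only. Both 90 hpf levels were below both 24 hpf levels in 497 regions (41.0%) and above them in 246 (20.3%), and they overlapped in 469. The median log2 ratio of 90 to 24 hpf was −0.14 (SD 0.53 over regions), against 0.01 in shared regions, where 31.6% lay below and 32.5% above. The mean level was at least 2 times higher at 90 hpf in 27 regions and at least 2 times higher at 24 hpf in 62.

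The 10 regions with the highest weakest fold enrichment, between 5.78 and 6.52, are described first. The one with the highest value, at NW_024037048.1:17552113-17552401 (Pmin_3.0), had fold enrichments of 6.61 and 6.52 at 24 hpf, no peak at 66 hpf, and 11.45 and 8.89 at 90 hpf. Its levels were 9.87, 9.94, 17.89 and 12.98, so both larval values were above both blastula values. Its mean level equals 16.15 and 14.07 reads at the depth of the 66 hpf lists, where 8 and 7 reads reach the bar. The nearest 66 hpf peak was 25077 bp away, in a stretch of 57163 bp without one.

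The next, at NW_024037058.1:9159408-9160004, was 1 of the 2 regions with all 4 −log10 p-values past 15, at 23.22 and 21.99 at 24 hpf and 16.58 and 17.48 at 90 hpf. Its levels of 20.33, 22.37, 16.04 and 15.58 did not overlap between stages, the larval ones being lower. Scaled to late gastrula its mean level equals 23.67 and 20.62 reads, against 11 at the bar in each list. The other such region, at NW_024037056.1:13007548-13007946, had −log10 p-values of 23.11 and 15.33 at 24 hpf and 19.06 and 15.92 at 90 hpf. Here the stages overlapped (levels of 22.07 and 17.40 at 24 hpf, 17.89 and 15.58 at 90 hpf), and its mean level was 1.94 times the bar.

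A further region of the 10, at NW_024037056.1:12952260-12952516, was on the same scaffold. Its fold enrichments were 6.25 and 7.67 at 24 hpf and 10.68 and 14.01 at 90 hpf, the larval values again being the higher ones. Its mean level was 2.33 times the bar, and no 66 hpf peak lay within 14530 bp. Over all 10 regions the mean level was 1.49 to 2.33 times the lower bar and 1.48 to 2.32 times the higher one. Once centred on shared regions it was 1.82 to 2.81 times the lower bar over the 10.

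**Figure D4:**
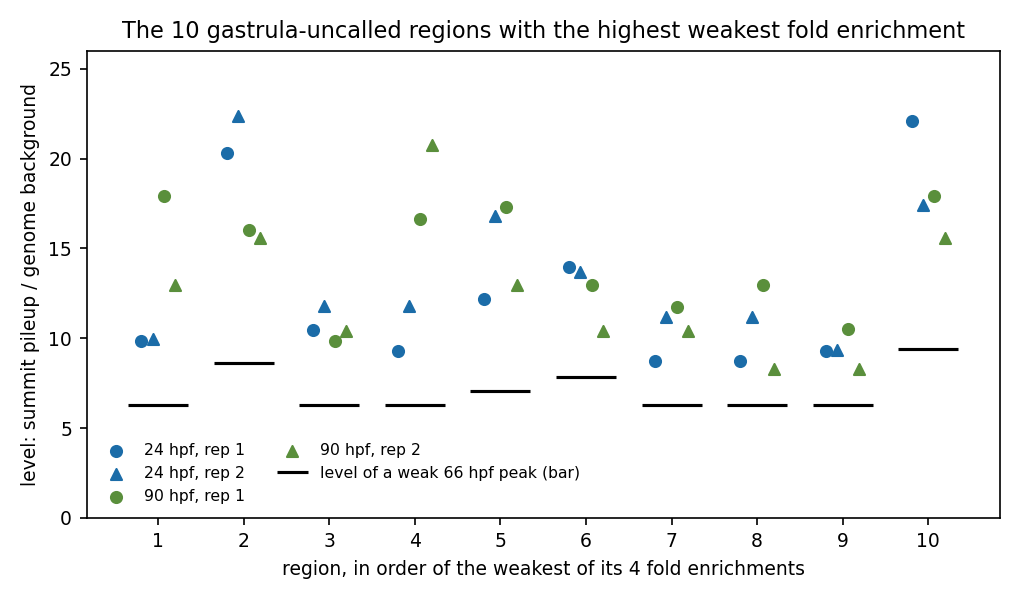
Levels (summit pileup over genome background) of the 10 gastrula-uncalled regions with the highest weakest fold enrichment in each 24 hpf (blue) and 90 hpf (green) list; circles are replicate 1 and triangles replicate 2. Every point lies above the black line, the level of a weak 66 hpf peak in the list where it is lower, by at least 1.32 times (1.28 times against the other list).

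The highest ratio to the bar was found outside these 10, in a region named after its values were seen. At NW_024037056.1:14483352-14483718 the fold enrichments were 12.09 and 15.04 at 24 hpf (ranked at 10.65% and 4.61% of those lists from the top) and 5.72 and 9.23 at 90 hpf. The levels were 29.62 and 38.53 at 24 hpf and 8.64 and 13.50 at 90 hpf, so the larval values stood well below the blastula ones. Its mean level was 3.20 times the lower bar and 2.78 times the higher one, and the nearest 66 hpf peak was 7979 bp away. Of the 10 regions at 2 or more times the bar, 4 were also among the 10 with the highest weakest fold enrichment.

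The 5 regions with the lowest weakest fold enrichment, from 1.88 to 2.13, lay over high local backgrounds. A peak of low fold enrichment passes a set p only where the background is high, so the ranking itself picks such regions. The lowest, at NW_024037055.1:12043428-12043723, had fold enrichments of 1.88, 2.13, 1.96 and 1.95 but summits of 55, 59, 46 and 51 reads. In all 5 the local background was 11.74 to 15.41 times the genome background, so that a weak peak there held 33 to 40 reads at the depth of 66 hpf replicate 1. Their mean levels were 0.98 to 1.34 times the bar, and a shared region lay within 312 to 1240 bp of each. Such high local backgrounds were uncommon. The local background was at least 5 times the genome background in 103 gastrula-uncalled regions (8.50%) and 14.4% of shared regions, and at most 1.1 times it in 340 (28.1%) and 13.6%.

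The regions were spread over all 30 scaffolds that held peaks in all lists of 24 and 90 hpf, and made up 1.86 to 5.69% of those regions on each. Ordered along the scaffolds, 1126 stood alone among such regions and 86 lay in 42 runs, the longest being 2 runs of 3. These were NW_024037069.1:22831284-22862494 and NW_024037074.1:14943576-15022767. The nearest other gastrula-uncalled region was a median of 119227 bp away. The nearest 66 hpf peak lay a median of 1389 bp away, within 1000 bp for 489 regions (40.3%) and within 5000 bp for 1005 (82.9%). It was within 100 bp for 43 regions (3.55%), and the 1169 others had the same median ratio to the bar, 1.23. The uninterrupted stretch without a 66 hpf peak had a median of 7751 bp around these regions, and it was over 100 kb around 14 of them. The nearest shared region was a median of 3204 bp away, against 3075 bp between shared regions, 4469 bp for regions uncalled at 24 hpf alone and 6211.5 bp for those uncalled at 90 hpf alone.

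Shared regions within 1000 bp of them had lower late gastrula ratios than shared regions at large. The difference was not tested, because neighbouring regions are not replicates. Within 1000 bp of a gastrula-uncalled region, 286 shared regions had a median log2 ratio of 66 hpf to the other stages of 0.19, against 0.28 over all, and 30.1% against 21.5% were below 0. Within 5000 bp the median over 730 regions was 0.26, close to that over all, with 25.8% below 0. In shared regions the median ratio also varied with mean level, at 0.41 from 6 to 8, 0.18 from 12 to 16 and 0.32 at 24 or more. Levels were not matched in this comparison. The 4 peaks of a gastrula-uncalled region all overlapped each other in 1115 (92.0%), against 97.3% in shared regions, and their summits spanned a median of 90.5 bp, against 67.0 bp.

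**Figure D5:**
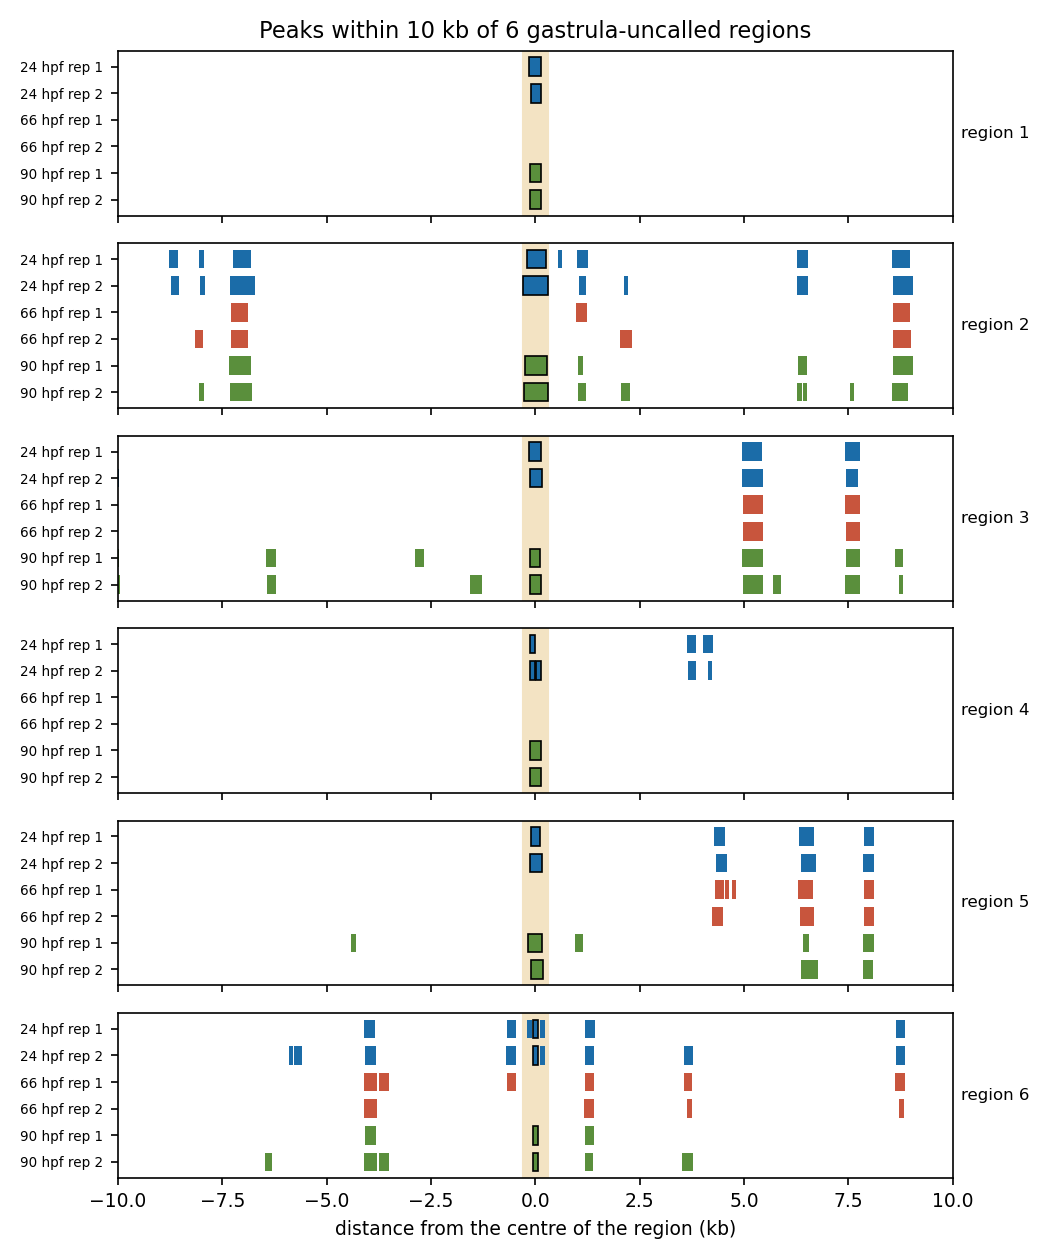
Peaks of the 6 sea star lists (rows, 24 to 90 hpf) within 10 kb of the first 6 of the 10 regions with the highest weakest fold enrichment, by distance from the centre of the region in kb; outlined bars are the peaks of the region. The 66 hpf rows are empty over each region but hold peaks within 10 kb in 4 of the 6 windows, the nearest at 683 bp in the second and 406 bp in the sixth.

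Gene assignments were at hand for only 3 scaffolds, from a partial table of elements, and 33 gastrula-uncalled regions overlapped an element in it. Of these, 5 were assigned to a gene whose orthogroup holds human symbols. The region with the highest weakest fold enrichment among them (4.78) was at NW_024037054.1:7840922-7841255, proximal to LOC119723229, of the WFDC2 and WFDC3 group of small secreted proteins with a whey acidic protein domain. Its fold enrichments were 5.51 and 4.98 at 24 hpf and 6.11 and 4.78 at 90 hpf, the stages overlapped, and its mean level was 1.26 times the bar. The next, at NW_024037055.1:1029756-1030084, was distal to LOC119723321, of the ST6GALNAC group of sialyltransferases, enzymes that add sialic acid to glycans. It had 6.71 and 6.64 at 24 hpf and 6.35 and 4.45 at 90 hpf, lower at the larva in both replicates, with a mean level 1.71 times the bar.

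Another, at NW_024037054.1:10889827-10890210, was distal to LOC119722975, of the contactin group (CNTN1 to CNTN6), which in human are cell adhesion proteins of neurons. Its fold enrichments were 5.14 and 3.83 at 24 hpf and 6.05 and 5.77 at 90 hpf, the larval values being higher, and its mean level was 1.5 times the bar. The remaining regions, distal to LOC119722950 (a group of B3GALT and B3GNT enzymes that extend glycan chains) and to LOC119722913 (the GAL3ST group of galactose sulfotransferases), had weakest fold enrichments of 3.29 and 2.91 and mean levels of 1.23 and 1.18 times the bar. No gastrula-uncalled region overlapped any of the 111 held rows of elements conserved between phyla. The overlap of other regions with these rows was not counted. The gastrula-uncalled regions are 1212 of 105823 regions, so few overlaps or none say nothing about their conservation.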

How the data were processed

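ATAC-seq peak lists of 6 sea star libraries were used; those of 8 sea urchin libraries were not used here. According to the paper and the submitters' processing notes, reads were aligned to Pmin_3.0 with Bowtie2, filtered with SAMtools, offset for the transposase, and short fragments were called with MACS2 in each replicate on its own. Each deposited peak has 4 values from the authors' peak caller: its score, its fold enrichment (the ratio of summit signal to local background, with 1 added to both), and its −log10 p-value and q-value. They hold no read counts.

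Peaks were merged in Python 3.11.15 (numpy 2.4.6, pandas 2.3.3, scipy 1.17.1; figures with matplotlib 3.10.9), and the merging was checked against bedtools 2.31.1. The strongest peak by p stood for a region in each list. Summit pileup and local background were solved from fold enrichment and p under the caller's Poisson model, to within 0.0001 in −log10 p, after a test on simulated data; in the late gastrula lists 1 peak of each could not be solved. The precision of a level is limited by summits of 7 to 88 reads in these regions. The bar of a late gastrula list is the p of the median among its weakest 5% of peaks, turned into a level at the local background of each region; the lower level of the 2 lists is used unless stated.

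Groups follow the labels, and stage names are those of the paper. The regions, rules and lists were chosen with earlier results of these data known. Named are the 10 regions with the highest and the 5 with the lowest weakest fold enrichment, and those overlapping a gene-assigned element whose orthogroup holds a human symbol. Regions in the loci the paper names could not be placed and are not analysed here, and no genome or full annotation of the sea star was used. Alternatives were a q of at most 0.001, lists of equal length, a 50% overlap, gaps of up to 100 bp, other bars and measures, and leaving out each replicate. The bar at the end of the lists, centring on shared regions, the higher of the 2 bars and the subsets by position were added after the data were seen.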

Additional observations from a re-analysis of the deposited data

How the results depend on the processing

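The count of 1212 gastrula-uncalled regions was 773 with lists of equal length, and between 1033 and 1198 with a q of at most 0.001 in every list (1187) or at 24 and 90 hpf only (1033), an overlap of 50% of the shorter peak (1198) or gaps of up to 100 bp (1175). With 1 library left out it ranged from 1682 to 2652, and the shares and ratios without 1 library below are over those regions. The share of regions whose weakest fold enrichment was below the late gastrula bar (42.7%) was 0.0% against the lowest listed value, 48.3% against the weakest 10%, 97.9% against the median of the whole lists, 33.4% by level and 14.4% by −log10 p; leaving out 1 library gave 27.2 to 53.3%. The share with all 4 scaled peaks past the bar (37.7%) was 98.0% at the end of the late gastrula lists and 35.0 to 63.3% without 1 library. The share whose mean level reached the bar (89.9%) was 100% at the end of the lists, 99.8% after centring on shared regions, 80.5% against the higher of the bars of the 2 lists and 80.9 to 93.4% without 1 library. The median ratio of 1.23 became 1.59 at the end of the lists, 1.44 after centring, 1.16 against the higher bar and 1.18 to 1.29 without 1 library. With centring and the end of the lists together it was 1.93. Which bar is right was not tested. Regions without a 66 hpf peak within 100 bp, and those whose strongest peaks share at least 1 bp, gave values close to all regions (89.9% and 91.1% reaching the bar).

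Replicates are numbered 1 and 2 at each stage, and the labels name no batch or culture that a number stands for. With the replicate block, stage labels permuted within a number, the difference in peaks per list of −7335.5 (66 hpf minus the others) had an exact two-sided permutation p of 0.222, where 0.111 is the smallest possible; without 1 library the difference ranged from −9130.5 to −4773.8. Same-numbered deviations correlated between stages, at 0.163 to 0.263 over 29123 shared regions. With 2 replicates per stage, pairing by number cannot be told apart from other differences between libraries, so no pairing is drawn from this. The lists stop at a threshold and hold no value below it, so low 66 hpf signal cannot be told apart from its absence.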
